A study of Mus musculus with 6 samples.

Results

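The AP-1 and BATF transcription factors described here are 10 genes chosen by symbol, namely *Fos*, *Fosb*, *Fosl1*, *Fosl2*, *Jun*, *Junb*, *Jund*, *Batf*, *Batf3* and *Atf3*, of 23420 genes in the table of counts. All 10 were in the table, and 8 of them were among the 10607 genes that passed the filter on low counts and were tested. *Fosb* and *Fosl1* did not pass.

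RNAseq was carried out on polyadenylated RNA from 6 cultures of splenic CD4+CD62L+ T cells from Balb/c mice aged 12 wk. All cells were purified on magnetic columns and activated on plate-bound antibodies to CD3 and CD28, under Th0 conditions without polarizing cytokines. All received a lentiviral short hairpin RNA (shRNA) 24 h after activation, by the labels 10 μl per well of virus at 20x concentration, where the methods of the study give another volume. They were fed 24 h after that, with IL-2 in the medium according to the labels, and harvested 48 h after feeding. The methods of the study state that its Th0 cultures were not supplemented with IL-2. The 3 groups, of 2 libraries each, were cells with a scrambled control shRNA (control), cells with the same control shRNA and harmine, a small-molecule inhibitor of the kinase DYRK1A, at 3.7 μM from feeding on (harmine), and cells with an shRNA against *Dyrk1a* and no harmine (*Dyrk1a* shRNA). The groups thus share activation and transduction, and harmine was given only with the control shRNA. A step that sorts or selects the transduced cells is not described in the sources used here, nor is the number of mice, so p-values measure only the spread between these libraries, which may be technical.

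The genes encode basic leucine zipper proteins, which bind DNA as pairs. JUN proteins pair with each other or with FOS proteins to form AP-1, which is induced by MAP kinase signals on T cell activation and binds composite sites together with NFAT. BATF and BATF3 lack the activation domains of FOS, pair with JUN proteins, and cooperate with IRF4 at composite elements of T cell genes. DYRK1A phosphorylates NFAT proteins and opposes their entry into the nucleus. The comparisons address how the transcripts of NFAT's partners differ after harmine and after an shRNA against *Dyrk1a*. The study lists monoamine oxidase A and CDC-like kinases among other targets of harmine.

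The libraries held 1096345 to 3747648 counts, fewest in the controls, and 3 counts were worth 0.792 to 2.53 CPM (counts normalised to library depth, here with TMM scaling). The control libraries stood further apart than the others, with a chi-square per degree of freedom between replicates of 10.4 against 3.84 for harmine and 3.58 for *Dyrk1a* shRNA. *Dyrk1a* itself was at 58.4 and 82.7 CPM in the controls, 74.8 and 77.6 with harmine, and 60.2 and 61.9 in the libraries labelled *Dyrk1a* shRNA. Both of the latter lay within the range of the controls (log2 fold change -0.19, SE 0.21, edgeR adjusted p = 0.835), and the value was -0.45 without control replicate 1 and 0.07 without control replicate 2. Both were below both harmine libraries (-0.32, SE 0.20, adjusted p = 0.880, and -0.35 to -0.29 over single libraries left out). A lower level of the targeted transcript was thus not called against either group, and the group is named here as it was labelled. Summed markers of CD4 T cells were at 3702 to 4042 CPM in every library, with all 11 markers detected. The sums for 4 other cell types were far lower, at 70.0 to 120 CPM for B cells, 42.2 to 72.8 for CD8 T and NK cells, 19.2 to 45.8 for myeloid cells and 18.0 to 32.6 for erythroid cells and platelets. Each of these 4 sums was highest in control replicate 1, as was the sum for CD4 T cells. B cell markers summed to 120 and 95.4 CPM in the controls, 75.4 and 70.0 with harmine, and 91.6 and 101 with *Dyrk1a* shRNA. The part of other cell types in the results was not tested. In bulk cultures, fewer expressing cells and less RNA per cell cannot be told apart.

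*Fos* and *Jun* are textbook immediate early genes with sites for leucine zipper factors in their promoters, and the stretches below show where such letters stand in the promoters of these genes. RefSeq promoter windows of 300 bases (250 before to 50 after the start, GRCm38.p6) were found for 9 of the 10 genes. They were searched on both strands for TGANTCA (the AP-1 site), TGACNTCA (a CRE-like site) and TGACG (the first letters shared by CREB and ATF sites, which can overlap TGACNTCA where N is G). Each stretch of 60 bases is shown on the strand of the gene with the matching letters in capitals, for the 6 genes with a match, centred on the match nearest to the start.
Jun: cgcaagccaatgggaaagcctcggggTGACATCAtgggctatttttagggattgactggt
Junb: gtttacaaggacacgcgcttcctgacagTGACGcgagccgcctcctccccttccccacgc
Fos: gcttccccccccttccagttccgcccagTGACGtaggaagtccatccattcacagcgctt
Fosb: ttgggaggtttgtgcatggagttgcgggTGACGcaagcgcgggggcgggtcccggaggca
Batf: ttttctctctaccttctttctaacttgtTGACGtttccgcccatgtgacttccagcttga
Atf3: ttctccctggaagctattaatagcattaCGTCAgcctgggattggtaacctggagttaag
They lie at chr4:95052234-95052293 (*Jun*, minus strand), chr8:84978823-84978882 (*Junb*, minus), chr12:85473796-85473855 (*Fos*, plus), chr7:19310074-19310133 (*Fosb*, minus), chr12:85686594-85686653 (*Batf*, plus) and chr1:191183309-191183368 (*Atf3*, minus). The first matching base was at -45 for *Jun*, -106 for *Junb*, -66 for *Fos*, -60 for *Fosb*, -98 for *Batf* and -7 for *Atf3*, counted from the start. TGACG was in 5 of 9 windows, and in 20.8% of 32851 RefSeq windows. TGACNTCA was in 1 of 9 against 8.83%, and TGANTCA in 0 of 9 against 7.81%. GGAAA, the core of NFAT sites, and TATAAA, the letters of a TATA box, were also searched and are not marked above. GGAAA was in 3 of 9 windows against 61.3%, and TATAAA in 2 of 9 against 13.6%. TATAAA began at -33 in *Fos* and at 1 in *Junb*. Positions are counted from the RefSeq start, which for *Junb* lies upstream of the start in GENCODE. A match describes the letters of the window and is not a measurement of binding. The windows of *Fosl2*, *Jund* and *Batf3* held no TGANTCA, TGACNTCA or TGACG. That of *Jund* lies upstream of the start in GENCODE, while those of *Fosl2*, *Batf3* and *Atf3* lie inside the span of the GENCODE gene.

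The 10 genes spanned a wide range of levels. Levels are compared between genes as CPM per kb of merged exon (GENCODE M21, GRCm38). *Junb* and *Jund* were the highest, with means over all libraries of 128 and 101, above the level of 97% and 96% of the tested genes with an annotated length. *Batf* followed at 26.9, *Batf3* at 22.5 and *Fosl2* at 19.9, then *Jun* at 11.5 and *Atf3* at 8.83. *Fos*, the founding member of its family, was at 1.85, in the lowest part of the tested genes (percentile 17.2). *Fosb* was at 0.103 from 8 counts in all, with 1 or 2 in each library, so its differences between groups are within counting error. *Fosl1*, encoding FRA1, had 0 of 15981406 counts, which allows up to 0.188 CPM over all libraries (without TMM scaling), and 1.06 over the controls alone, for counting error only.

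Of neighbours in this order, the ranges over 6 libraries were separate between *Jund* and *Batf*, *Atf3* and *Fos*, *Fos* and *Fosb*, and *Fosb* and *Fosl1*, and overlapped for the others. *Junb* was above *Jund* in 5 of 6 libraries, *Batf* above *Batf3* in 5, *Batf3* above *Fosl2* in 3, and *Jun* above *Atf3* in 5. *Fosl2* exceeded *Jun* in 6 of 6 libraries although their ranges touched. The order was the same with the length of the longest transcript. In CPM not divided by length, *Fosl2*, with 9680 bases of merged exon, was at 141 to 226. *Batf* was at 30.4 to 48.3 CPM and *Batf3* at 28.3 to 43.9, so the place of *Fosl2* below them depended on the division. The cDNA was primed with poly-dT, and the evenness of coverage along transcripts was not examined.

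**Figure D1:**
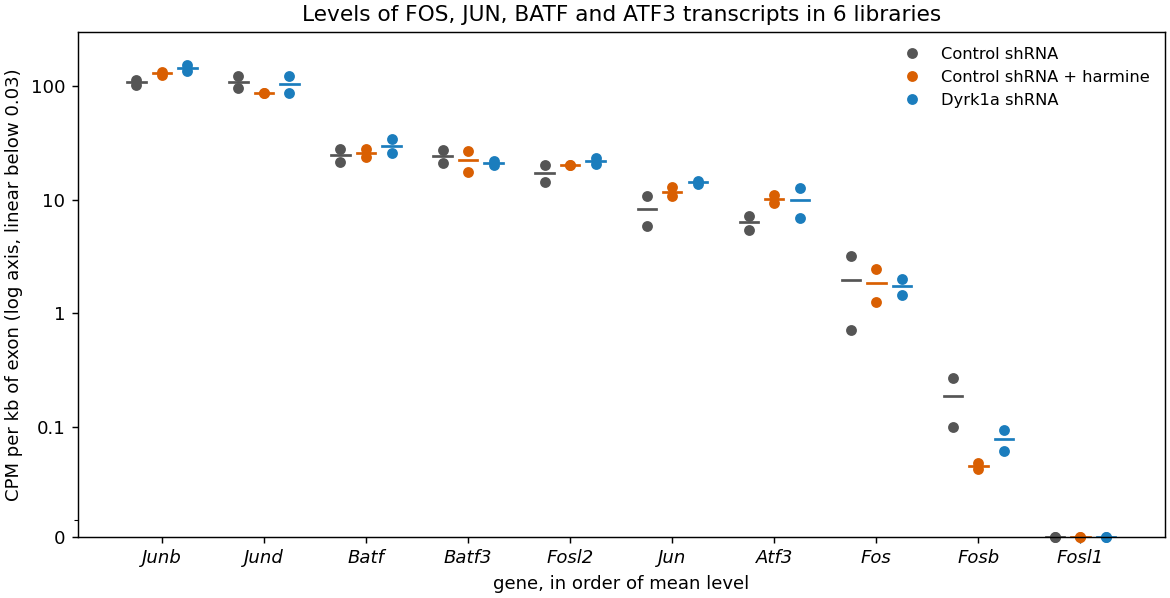
Level of each gene in CPM per kb of merged exon (log axis, linear below 0.03) in each of 6 libraries, with points for libraries, bars for the mean of 2 and colours for groups. *Junb* and *Jund* lie near 100 in all groups, *Fos* between 0.718 and 3.20, and *Fosl1* at 0.

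Within the families, 1 or 2 genes carried most of the transcript. Among FOS genes, *Fosl2*, which encodes FRA2, made up 81.5 to 95.3% of the summed level per length and *Fos* 3.40 to 18.0%. Both extremes were control libraries, where *Fos* had 12 and 2 counts. Among JUN genes, *Junb* and *Jund* together left 2.43 to 5.76% to *Jun*. *Batf* made up 46.9 to 61.2% of the BATF pair. The summed level per length of the JUN genes was 211 to 274 CPM per kb over the libraries, that of the FOS genes 17.8 to 24.9 and that of the BATF genes 42.8 to 56.2.

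*Junb* took 47.2 and 49.2% of the JUN sum in the controls, 57.7 and 55.8% with harmine, and 59.9 and 49.8% with *Dyrk1a* shRNA. The log2 ratio of *Junb* to *Jund*, which no scaling of a library changes, was -0.09 and 0.11 in the controls, 0.62 and 0.53 with harmine, and 0.80 and 0.14 with *Dyrk1a* shRNA. This ratio was chosen after its values were seen and was not tested, since 2 libraries against 2 cannot go below p = 0.333 in an exact permutation test. The harmine libraries were close to each other and above both controls, whereas *Dyrk1a* shRNA replicate 2 was nearly at the level of control replicate 2.

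**Figure D2:**
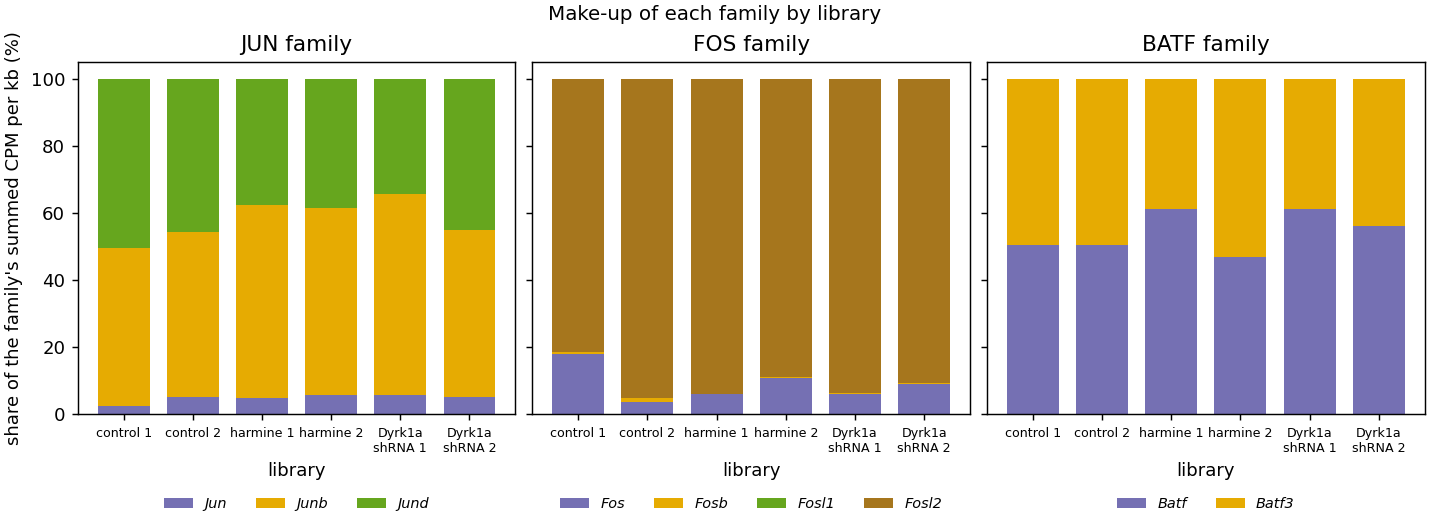
Share of each gene in its family's summed CPM per kb (%) in each library, as stacked bars for the JUN, FOS and BATF families. *Jund* takes 50.4 and 45.6% of the JUN bar in the controls and 37.6 and 38.5% with harmine, and *Fosl2* fills most of the FOS bar in every library.

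None of the 8 genes tested was called in any of the 3 comparisons. The test was edgeR's quasi-likelihood test with all 6 libraries in 1 fit and Benjamini-Hochberg adjustment over all genes. With harmine 0 of 8 were called, beside 0.00943% of all genes tested, and 0 had an unadjusted p under 0.05, beside 5.3%. With *Dyrk1a* shRNA 0 were called, beside 0.0189%, and 2 (*Jun* and *Junb*) had an unadjusted p under 0.05, beside 7.69%. Between *Dyrk1a* shRNA and harmine 0 were called, beside 0.00943%, and 0 had an unadjusted p under 0.05, beside 5.73%. The Wald test of DESeq2 also called 0, beside 0.0283%, 0.0283% and 0.0189% of all genes tested in the same 3 comparisons. By that test 1 gene (*Jun*, with *Dyrk1a* shRNA) had an unadjusted p under 0.05, beside 385 of 10607 genes tested. With harmine and between the treatments 0 of the 8 did, beside 243 and 205 of all genes.

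The 95% intervals of single genes had a median half-width on the log2 scale of 0.52 with harmine, 0.53 in the comparison of *Dyrk1a* shRNA with control and 0.47 in that of *Dyrk1a* shRNA with harmine. For each gene they rest on 1 estimate of spread shared by all groups, although the control libraries stood further apart than the others. The median log2 fold change of the 8 genes was 0.14 with harmine and 0.30 with *Dyrk1a* shRNA, and 0.13 in the comparison of both treatments, beside -0.02, -0.01 and -0.00107 over all genes tested. In each comparison 5 of 8 were above 0, beside 5040, 5128 and 5289 of 10607 genes tested. Both comparisons with control share the control libraries, so they are not independent of each other.

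With harmine, 3 of the 8 (*Fosl2*, *Junb* and *Atf3*) were higher in both libraries than in either control, beside 16.4% of all genes tested, and 1 (*Jund*) was lower, beside 15.9%. With *Dyrk1a* shRNA, 3 (*Fosl2*, *Jun* and *Junb*) were higher than both controls, beside 18.5%, and 0 lower, beside 16.9%. Against harmine, 4 (*Fosl2*, *Jun*, *Junb* and *Jund*) were higher with *Dyrk1a* shRNA, beside 20.2%, and 0 lower, beside 20.8%. In groups of 2 such separation is common, as these shares of all genes show.

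**Figure D3:**
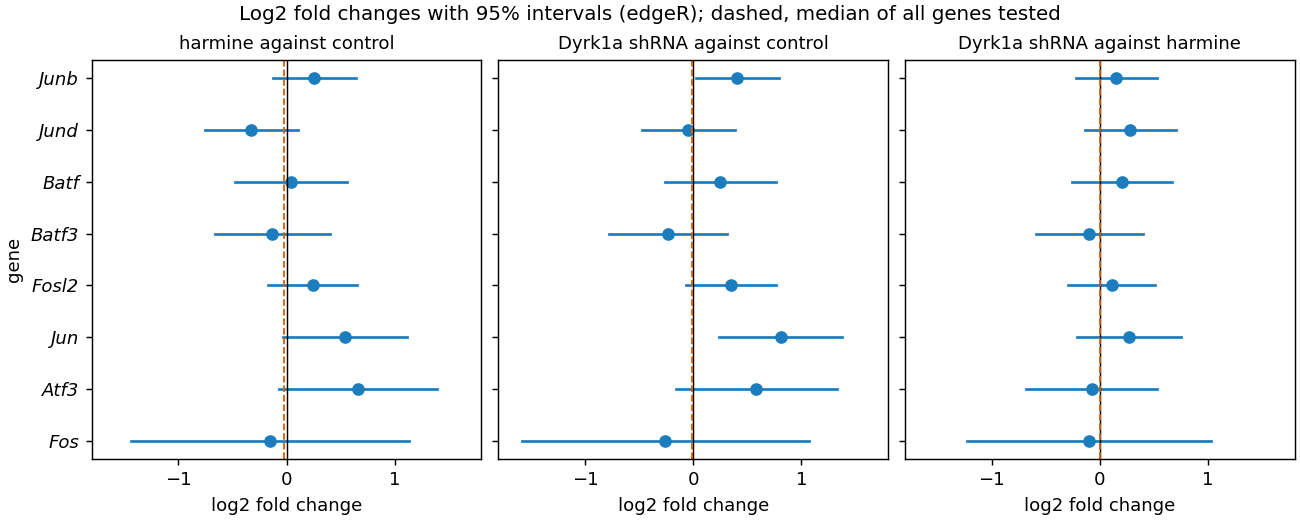
Log2 fold change of the 8 genes tested (points) with 95% intervals (lines) in each of the 3 comparisons, with a dashed line at the median of all genes tested. The intervals of *Jun* and *Junb* with *Dyrk1a* shRNA against control, before any adjustment, do not include 0, and all others do.

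*Jun*, a single-exon gene whose product is a strong activator, showed the largest difference with *Dyrk1a* shRNA of the 8 genes. Its levels were 18.8 and 34.6 CPM in the controls (30 and 41 counts), 34.3 and 41.2 with harmine, and 47.1 and 44.2 with *Dyrk1a* shRNA. Both *Dyrk1a* shRNA libraries were above every other library, while harmine overlapped the controls. The log2 fold change with *Dyrk1a* shRNA was 0.81 (SE 0.27, 95% interval 0.24 to 1.38, edgeR adjusted p = 0.612, unadjusted p = 0.00823), and with harmine 0.54 (SE 0.27, -0.03 to 1.11, adjusted p = 0.928). Between the treatments the difference was 0.27 (SE 0.23, -0.21 to 0.75, adjusted p = 0.908).

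The spread of *Jun* between the controls decided the size of its difference. With *Dyrk1a* shRNA the log2 fold change was 0.39 without control replicate 1, and 1.28 without control replicate 2, where *Jun* was called (edgeR adjusted p = 0.0170) together with 3.99% of all genes tested. With harmine it was 0.12 and 1.00 in the same fits. In such a fit the lone control is assumed to vary like the other groups. With trends of each library with transcript length and GC content removed, *Jun* was at 0.60 with *Dyrk1a* shRNA.

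*Junb* encodes a partner of BATF that is needed for Th17 differentiation. It was at 264 and 239 CPM in the controls, 310 and 290 with harmine and 353 and 314 with *Dyrk1a* shRNA, and the 3 groups did not overlap. The log2 fold change was 0.41 with *Dyrk1a* shRNA (SE 0.18, 95% interval 0.02 to 0.79, edgeR adjusted p = 0.622, unadjusted p = 0.0389), 0.25 with harmine (SE 0.18, adjusted p = 0.938) and 0.15 between them (SE 0.18, adjusted p = 0.940). Once the trends with length and GC content were removed, it was 0.23 with *Dyrk1a* shRNA (unadjusted p = 0.150 by edgeR) and -0.01 between the treatments. In a fit of *Dyrk1a* shRNA and control alone it was 0.40 (unadjusted p = 0.0808 by edgeR). With library size alone as scaling it was 0.43 with *Dyrk1a* shRNA (unadjusted p = 0.0554 by edgeR). A shorter transcript of *Junb* overlaps *Prdx2* on the other strand, and the library kit does not mark strand. Genes on the other strand also overlap *Jun* (*Junos*), *Jund* (*Gm11175*) and *Atf3* (*Gm24748*), and none of these is in the table of counts.

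*Jund*, which encodes a JUN protein often linked to restrained growth, was at 204 and 160 CPM in the controls, 146 and 145 with harmine, and 147 and 207 with *Dyrk1a* shRNA. The harmine libraries were below both controls, and the *Dyrk1a* shRNA libraries spanned them. The log2 fold change was -0.33 with harmine (SE 0.20, edgeR adjusted p = 0.928), or -0.14 without control replicate 1. It was -0.04 with *Dyrk1a* shRNA (SE 0.20) and 0.28 between the treatments (SE 0.20, adjusted p = 0.896). With *Dyrk1a* shRNA it was 0.18 without replicate 1 and -0.32 without replicate 2 of that group. It was 0.14 without control replicate 1 and -0.20 without control replicate 2, so its direction depended on single libraries of either group.

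*Fosl2*, the main FOS transcript in these cells, was at 141 and 195 CPM in the controls, 197 and 198 with harmine and 226 and 200 with *Dyrk1a* shRNA. Control replicate 1 stood low, and the other control was close to the harmine libraries. The log2 fold change was 0.24 with harmine (SE 0.19) and 0.35 with *Dyrk1a* shRNA (SE 0.20), and it fell to 0.01 and 0.12 without control replicate 1. *Fos* was at 7.53 and 1.69 CPM in the controls, 2.98 and 5.81 with harmine, and 3.45 and 4.72 with *Dyrk1a* shRNA, and the groups overlapped. Its log2 fold changes were -0.15 with harmine (SE 0.61) and -0.26 with *Dyrk1a* shRNA (SE 0.63), with intervals of -1.44 to 1.13 and -1.58 to 1.07. Without control replicate 1 they were 1.37 and 1.26, so no direction can be given for *Fos*.

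*Batf*, required for Th17 cells in mice, was at 39.5 and 30.4 CPM in the controls, 39.3 and 33.5 with harmine, and 48.3 and 36.3 with *Dyrk1a* shRNA. All 3 groups overlapped. The log2 fold change was 0.04 with harmine (SE 0.24, 95% interval -0.47 to 0.56), 0.25 with *Dyrk1a* shRNA (SE 0.24, -0.26 to 0.76) and 0.21 between them (SE 0.22). *Batf3*, best known for its part in dendritic cell development, was at 43.9 and 33.8 CPM in the controls, 28.3 and 43.0 with harmine, and 34.9 and 32.1 with *Dyrk1a* shRNA. Its groups overlapped in each comparison, with log2 fold changes of -0.13 (SE 0.25), -0.23 (SE 0.26) and -0.10 (SE 0.23).

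*Atf3*, a stress-induced factor that pairs with JUN proteins, was at 15.7 and 11.8 CPM in the controls (25 and 14 counts), 20.3 and 23.8 with harmine, and 27.6 and 15.0 with *Dyrk1a* shRNA. The harmine libraries were above both controls, and *Dyrk1a* shRNA replicate 2 lay between the controls. The log2 fold change was 0.66 with harmine (SE 0.34, 95% interval -0.07 to 1.39, edgeR adjusted p = 0.928) and 0.58 with *Dyrk1a* shRNA (SE 0.35, -0.16 to 1.33, adjusted p = 0.711). Without *Dyrk1a* shRNA replicate 1 the latter was 0.11.

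**Figure D4:**
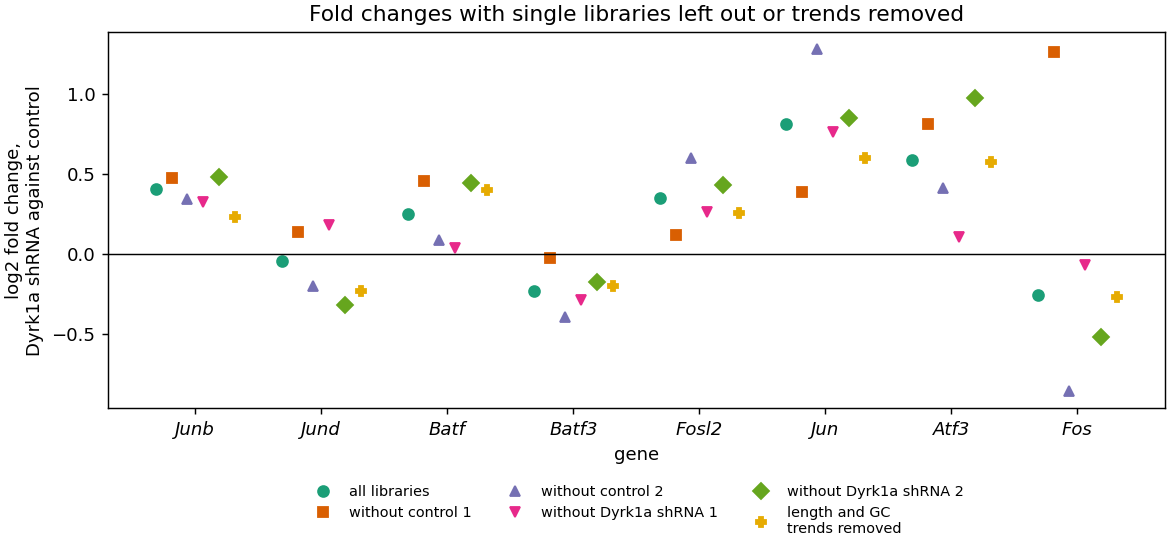
Log2 fold change of each gene with *Dyrk1a* shRNA against control, from all libraries, with each control or *Dyrk1a* shRNA library left out, and with length and GC trends removed (symbols). *Jun* runs from 0.39 to 1.28 and *Fos* from -0.85 to 1.26, whereas *Junb* stays between 0.23 and 0.48.

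The transcripts around AP-1 were grouped in 5 lists, and 0 of their genes were called in any comparison. Among 28 tested of 34 other leucine zipper factors, 13 were above 0 with harmine (median log2 fold change -0.05), 17 with *Dyrk1a* shRNA (0.04) and 14 between them (-0.03). Of these *Crem*, a cAMP-responsive factor with repressor forms, was at -0.61 with *Dyrk1a* shRNA (SE 0.19, unadjusted p = 0.00444 by edgeR) and -0.23 with harmine. *Nfil3* was at 0.49 (SE 0.19) and 0.22. The stress factors *Nfe2l1* and *Nfe2l2*, the latter encoding NRF2, were at 0.49 (SE 0.19) and 0.52 (SE 0.21) between *Dyrk1a* shRNA and harmine.

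Of the MAP kinases and their targets that lead to AP-1, 27 of 28 were tested. With harmine 19 were above 0 (median 0.07), with *Dyrk1a* shRNA 19 (0.16), and between them 20 (0.15). *Map2k1*, an activating kinase of ERK, was at 0.45 with *Dyrk1a* shRNA (SE 0.19) and at 0.27 with harmine (SE 0.19). *Rps6ka1*, a kinase downstream of ERK, was at 0.50 between the treatments (SE 0.18), and *Mapk13*, encoding a p38 kinase, at -1.02 (SE 0.41). The levels of *Mapk13* were low, at 6.28 and 4.22 CPM in the controls, 8.05 and 8.19 with harmine, and 3.07 and 4.72 with *Dyrk1a* shRNA.

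Of the genes listed as immediate early companions of *Fos* and *Jun*, 26 of 29 were tested. Above 0 were 13 with harmine, 13 with *Dyrk1a* shRNA and 11 of the latter against harmine, and the medians were 7.98e-05, 0.02 and -0.05. *Egr1*, a zinc finger factor, was at -1.55 with harmine (SE 0.58) and -0.19 with *Dyrk1a* shRNA (SE 0.52), and differed by 1.37 between them (SE 0.53, edgeR adjusted p = 0.830). Its levels were 20.1 and 4.22 CPM in the controls, 5.66 and 3.17 with harmine, and 14.2 and 8.84 with *Dyrk1a* shRNA. Harmine overlapped the controls, of which replicate 1 was the higher. The *Dyrk1a* shRNA libraries lay between the controls and above both harmine libraries. *Dusp2*, a phosphatase of MAP kinases, was at -0.78 (SE 0.23), -0.01 (SE 0.23) and 0.77 (SE 0.22, adjusted p = 0.617) in the same 3 comparisons. *Klf6* was at -0.49 with harmine (SE 0.18), and *Rgs1*, a regulator of G protein signals, at -0.69 with *Dyrk1a* shRNA (SE 0.20) and -0.60 against harmine (SE 0.19).

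The NFAT and IRF partners, 6 of 6 tested, had medians of -0.06, 0.01 and 0.17 in the 3 comparisons, with 2, 3 and 4 genes above 0. *Nfat5*, the calcineurin-independent member, was at -0.41 with *Dyrk1a* shRNA (SE 0.19), *Irf8* at 0.45 (SE 0.22) and *Nfatc2*, encoding NFAT1, at -0.12 (SE 0.22). *Nfatc2* was at -0.30 with harmine (SE 0.22), and *Nfatc3* at 0.20 between the treatments (SE 0.17). *Irf4*, the usual partner of BATF, was not among those that the naming rule takes from this list and was added after its values were seen, at 0.11 with harmine (SE 0.29) and -0.10 with *Dyrk1a* shRNA (SE 0.29).

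Of 26 genes listed as targets of AP-1, BATF or NFAT, 19 were tested, with 6 above 0 with harmine (median -0.27), 6 with *Dyrk1a* shRNA (-0.16) and 11 in the comparison of both (0.22). The cytokine *Il21* was at 0.77 with harmine (SE 0.24, unadjusted p = 0.00625, adjusted p = 0.837 by edgeR), 0.14 with *Dyrk1a* shRNA (SE 0.25) and -0.62 between them (SE 0.22). *Fasl*, the death receptor ligand, was at -1.55 (SE 0.50) and -0.92 (SE 0.48) against control. Its levels were low, at 12.6 and 6.75 CPM in the controls, 3.87 and 2.90 with harmine, and 6.90 and 3.83 with *Dyrk1a* shRNA. Control replicate 1 was the highest, and the *Dyrk1a* shRNA libraries overlapped the controls. The inhibitory receptor *Ctla4* was at -0.54 between *Dyrk1a* shRNA and harmine (SE 0.18), and the costimulatory receptor *Icos* at -0.55 with *Dyrk1a* shRNA (SE 0.20).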

How the data were processed

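The authors aligned reads to mm10, per the labels with TopHat2 2.0.13, and ran RSEM on known transcripts to get estimated counts for each gene. The deposited expected counts were not normalized, and were rounded to whole numbers here. The RSEM and annotation versions are not given in the sources used here. Columns were assigned to libraries through the sample labels.

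All 6 libraries entered 1 edgeR 4.0.16 fit in R 4.3.3 (TMM scaling; genes kept by filterByExpr at 10 counts; robust quasi-likelihood, two-sided, Benjamini-Hochberg over 10607 genes, threshold 0.05), with 3 group means. The F statistic of each fold change gave its standard error. The fit was tested on simulated data. The libraries held 1096345 to 3747648 counts, and floors of 3 counts cover counting error only, whereas the intervals of fold changes include the spread between libraries. Lengths came from GENCODE M21 (21777 symbols matched, 93.0%), and promoters from RefSeq.

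Alternatives were library size or DESeq2 size factors as scaling, the DESeq2 1.42.0 Wald test, filters of 50 counts or none, a block for replicate number, each pair alone, trends with length and GC content removed (splines with 4 degrees of freedom), and leaving out each library. The genes and lists were chosen with earlier results of these data known. Besides the 10 genes and *Dyrk1a*, the text names up to 4 genes of each list with the smallest unadjusted p over the 3 comparisons. A gene that this rule takes is not reported here.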

Additional observations from a re-analysis of the deposited data

How the results depend on the processing

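None of the 8 genes was called under any scaling, tool, filter, block or pairwise fit, and *Jun* with *Dyrk1a* shRNA was the 1 gene called when libraries were left out, without control replicate 2 (members called 0 to 1). The controls hold the fewest counts, which limits the genes at low counts most. Over single libraries left out, the log2 fold changes with harmine ran from -0.75 to 1.37 for *Fos*, -0.12 to 0.25 for *Batf*, -0.47 to 0.14 for *Batf3* and -0.12 to 0.39 for *Dyrk1a*. With *Dyrk1a* shRNA they ran from -0.85 to 1.26 for *Fos*, -0.32 to 0.18 for *Jund*, 0.39 to 1.28 for *Jun* and -0.45 to 0.0687 for *Dyrk1a*. Between the treatments they ran from -0.48 to 0.47 for *Fos*, -0.00439 to 0.41 for *Batf*, -0.36 to 0.24 for *Batf3* and -0.55 to 0.32 for *Atf3*. With length and GC trends removed, *Fosl2* (-0.0391), *Junb* (-0.0143) and the median of the 8 genes (-0.03) turned negative between the treatments, and the cause was not tested. With the length of the longest transcript, levels per kb were 163 for *Junb*, 39.7 for *Batf*, 32.4 for *Batf3* and 29.5 for *Fosl2*.

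All genes called numbered 1 for harmine, 2 for *Dyrk1a* shRNA and 1 between these groups, and 20, 28 and 22 without a filter, where more genes are tested. With harmine the count was 3 by DESeq2, 0 with a minimum count of 50, 0 in the pair alone and 1 to 291 over libraries left out. With *Dyrk1a* shRNA it was 1 with length and GC trends removed, 5 in the pair alone and 1 to 439 over libraries left out. Between them it was 3 with library size alone, 2 by DESeq2, 0 with length and GC trends removed, 4 in the pair alone and 0 to 5 over libraries left out. The highest counts with harmine and with *Dyrk1a* shRNA came without control replicate 2.

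With the replicate number as a block, all genes called were 0, 2 and 0 in the 3 comparisons and 0 of the 8 genes were called. The deviations of same-numbered libraries correlated across 10607 genes at 0.120 between control and harmine, 0.0196 between control and *Dyrk1a* shRNA and 0.240 between harmine and *Dyrk1a* shRNA, and no label says what a number marks, so the libraries were treated as unpaired.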
